A study of Homo sapiens with 6 samples.

Results

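The metallothionein genes were examined in RNA-seq libraries of H1650, an established human lung adenocarcinoma cell line, labelled as control or as carrying an shRNA against SETD2. They were taken by name, as every gene of the deposited expression table whose symbol starts with MT1 or MT2 followed by a capital letter, which gave 5 of 15897 genes (MT2A, MT1E, MT1M, MT1F and MT1X). The family was chosen by its difference between the same control and shSETD2 libraries, which was already known, so its values in these groups are given as a description with no test. Expression of the other members of the family was not analysed here.

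There were 6 libraries of total RNA, 3 in each group. The control libraries are labelled wild type and the others shSETD2, with cell line H1650 and tissue lung given for all 6. The study made SETD2-silenced H1650 lines by lentiviral delivery of 3 separate shRNA constructs, and neither its text nor the labels say which construct a library carries or whether libraries numbered 1 to 3 came from separate cultures. The p-values below therefore measure the spread between these libraries, which may be technical. The labels give no batch or date. The values are FPKM, fragments scaled to transcript length and to the mapped fragments of the library, so levels of different genes are compared per length. The number of fragments behind each value is unknown, because low values in pairs of libraries did not fall on common steps (the most common ratio covered 1.03% of 1169 low genes in control libraries 1 and 2 and 0.999% of 1201 in shSETD2 libraries 1 and 2).

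Metallothioneins are small, cysteine-rich proteins that hold zinc and copper in clusters of metal and sulphur and that also bind cadmium. Their genes are switched on by zinc and cadmium through MTF1, a zinc-sensing transcription factor that binds metal response elements close to the start of transcription, and some are also induced by glucocorticoids, oxidants and inflammatory signals. In lung and other epithelia they buffer free zinc and protect against toxic metals and oxidants.

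The 5 genes lie on the plus strand of chromosome 16 within 76.0 kb, in the order MT2A, MT1E, MT1M, MT1F and MT1X. In GRCh37, the build of the deposited values, MT2A (ENSG00000125148.6_2) runs from 56642111 to 56643409, MT1E (ENSG00000169715.14_2) from 56659387 to 56661024 and MT1M (ENSG00000205364.3_2) from 56666145 to 56667898. MT1F (ENSG00000198417.6_2) runs from 56691606 to 56694610 and MT1X (ENSG00000187193.8_3) from 56716336 to 56718108. In the GENCODE annotation of that build, the reference transcript of each has 3 exons and 183 coding bases without the stop codon. The coding sequences were 88.5% (MT1F and MT1X) to 92.3% (MT2A and MT1E, MT2A and MT1X, MT1E and MT1M) identical in pairs.

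RefSeq promoters were on hand for MT2A and MT1X. The 250 bases before each RefSeq start are shown because the metal response elements through which MTF1 acts lie there. Both are written 5′ to 3′ on the plus strand from GRCh38.p14, with capitals for the core of the element (TGCACNC or TGCGCNC, searched on both strands, so a core on the minus strand reads GNGTGCA or GNGCGCA). MT2A is at chr16:56608334-56608583 and MT1X at chr16:56682220-56682469.
MT2A: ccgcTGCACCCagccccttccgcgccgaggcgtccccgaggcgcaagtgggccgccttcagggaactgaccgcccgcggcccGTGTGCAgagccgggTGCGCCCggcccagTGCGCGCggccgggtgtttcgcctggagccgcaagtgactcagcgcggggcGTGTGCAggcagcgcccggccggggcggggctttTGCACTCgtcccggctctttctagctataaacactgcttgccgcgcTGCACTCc
MT1X: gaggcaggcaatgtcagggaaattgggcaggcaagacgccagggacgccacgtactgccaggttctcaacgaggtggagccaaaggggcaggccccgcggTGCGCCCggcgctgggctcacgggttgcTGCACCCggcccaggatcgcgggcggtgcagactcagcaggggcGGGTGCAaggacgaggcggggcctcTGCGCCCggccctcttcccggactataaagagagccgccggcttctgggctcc

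The MT2A window held 7 metal response element cores, 5 TGCACNC and 2 TGCGCNC, the nearest of them 2 to 8 bases before the start and the farthest 240 to 246 bases before it. The MT1X window held 4, 2 of each form, all between 47 and 150 bases before the start. Of 35116 RefSeq promoter windows of the same length, 24.8% held at least 1 core, 1.58% at least 3 and 0.120% at least 5. These shares were not matched for G and C content, which was 73.2% in the MT2A and 70.0% in the MT1X window. The windows of 2 family genes outside the 5 held 8 (MT1H) and 3 cores (MT1B). The MT2A and MT1X windows each held 1 antioxidant response element core (TGACNNNGC, in 10.9% of all windows). The core in MT2A covers the 1 AP-1 site found in that window (TGACTCA, in 4.20% of all windows). No TGACTCA was found in the MT1X window. A TATAAA box stood 24 to 29 bases before the start in MT2A and 25 to 30 in MT1X, and 10.7% of all windows held one. These are matches of letters, not measured binding. The table starts MT2A 385 bases and MT1X 46 bases upstream of the RefSeq start, so the MT2A window lies wholly inside the gene as the table draws it.

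SETD2, the histone H3K36 methyltransferase that the shRNA targets, had 18.0, 10.2 and 17.6 FPKM in control libraries 1 to 3 and 8.97, 8.09 and 12.2 in shSETD2 libraries 1 to 3. Control library 2 lay below shSETD2 library 3, so the groups overlapped. The means were 15.3 ± 4.38 and 9.74 ± 2.15 (SD, n = 3 each), and the log2 fold change was -0.58 (SE 0.24, adjusted p = 0.0641 from limma). Without control library 2 it was -0.83 (adjusted p = 6.48e-03) and without shSETD2 library 3 it was -0.73 (adjusted p = 0.0418). The paper reports lower SETD2 by qPCR and western blot, and less H3K36 trimethylation, in H1650 cells with shRNA against SETD2. Just before its RNA-seq it also reports that the 3 shRNA constructs lowered SETD2 to a similar degree in H1650 cells. It does not say whether the sequenced cultures themselves were among those measured. Because SETD2 did not separate the groups in these libraries, they are called by their labels throughout.

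Across all genes the groups stood far apart. Pearson's r of log2(FPKM + 1) over the 14068 genes tested (mean FPKM of at least 0.5) was 0.982 to 0.990 between libraries of a group and 0.701 to 0.707 between groups. The test of limma called 78.6% of these genes at an adjusted p under 0.05, 26.8% higher and 51.8% lower in the shSETD2 libraries, with a median log2 fold change of -0.29. After scaling each library by its median ratio to the geometric mean library, the median was -0.01 and higher genes made up 49.6% of the calls in place of 34.1%. For 27.9% of the genes tested, no shSETD2 library reached as low as the highest control library, and this held for all 5 metallothionein genes, as the choice of the family had fixed in part. All 5 passed the filter on low values, MT1E and MT1M only through the shSETD2 libraries.

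The metallothionein transcripts were low or listed at 0 in the control libraries, and MT2A and MT1E were among the highest transcripts of the shSETD2 libraries. Summed over the 5 genes, the level was 12.5, 11.2 and 12.9 FPKM in control libraries 1 to 3 (mean 12.2 ± 0.899, SD, n = 3) and 1137, 1040 and 1169 FPKM in shSETD2 libraries 1 to 3 (mean 1115.2 ± 67.0, SD, n = 3), 91.4 times as much. The summed FPKM of all genes was 219616 to 223381 in the control and 218769 to 224603 in the shSETD2 libraries, so the family went from 0.00510% to 0.00579% of it to 0.475% to 0.520%. In each shSETD2 library 14 genes had an FPKM above the family's sum, against 2865 to 3446 in the control libraries. In bulk RNA, more cells of a type with these transcripts and more transcript per cell cannot be told apart.

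**Figure D1:**
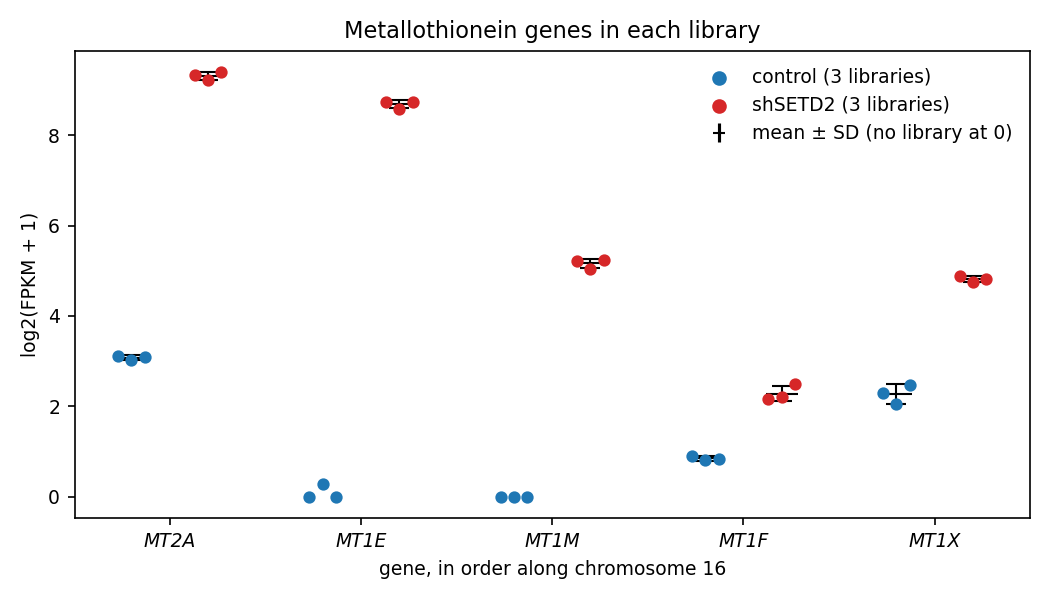
Level of each metallothionein gene as log2(FPKM + 1) in the 3 control (blue) and 3 shSETD2 (red) libraries, with genes in their order along chromosome 16 and bars for mean ± SD where no library is at 0. The shSETD2 points lie above the control points for every gene, from 3.48 to 4.59 FPKM for MT1F to 595.2 to 670.8 FPKM for MT2A.

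MT2A, the most widely expressed metallothionein of human tissues, was the highest of the 5 in every library. It had 7.72, 7.09 and 7.58 FPKM in control libraries 1 to 3 and 644.5, 595.2 and 670.8 FPKM in shSETD2 libraries 1 to 3. The groups did not overlap, and no library of either group stood apart from the other two. The means were 7.46 ± 0.329 and 636.8 ± 38.4 FPKM (SD, n = 3 each), a ratio of 85.3, and the difference was 6.23 on the log2(FPKM + 1) scale. Ordered by FPKM among the 15897 genes, MT2A was at positions 5081 to 5479 in the control and 19 to 20 in the shSETD2 libraries.

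MT1E, an MT1 isoform gene, was listed at 0 in control libraries 1 and 3 and at 0.217 FPKM in control library 2. In shSETD2 libraries 1 to 3 it had 424.3, 383.5 and 429.2 FPKM (mean 412.3 ± 25.1, SD, n = 3), which placed it at positions 29 to 33. It was thus second only to MT2A in the family in all 3 shSETD2 libraries, after being at or near 0 in the controls. The difference was 8.59 on the log2(FPKM + 1) scale, but with control values at 0 its size is set by the number added: adding 0.1 gave 11.45 and adding 0.01 gave 13.83.

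MT1M was listed at 0 in all 3 control libraries. In shSETD2 libraries 1 to 3 it had 36.1, 32.0 and 36.7 FPKM (mean 34.9 ± 2.55, SD, n = 3), which placed it at positions 848 to 993. No fold is given against a group listed at 0. None of 10 housekeeping genes looked at was listed at 0 in any library, which does not bear on the zeros of low genes. Of all genes in the table, 602 to 653 were at 0 in each control library and 1189 to 1227 in each shSETD2 library.

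MT1X had 3.91, 3.14 and 4.58 FPKM in control libraries 1 to 3 and 28.4, 25.8 and 27.4 FPKM in shSETD2 libraries 1 to 3. It was the second metallothionein of the control libraries and the fourth of the shSETD2 libraries, and the groups did not overlap. The means were 3.88 ± 0.717 and 27.2 ± 1.33 FPKM (SD, n = 3 each), a ratio of 7.02 and a difference of 2.54 on the log2(FPKM + 1) scale.

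MT1F was the lowest gene of the family in the shSETD2 libraries. It had 0.858, 0.749 and 0.778 FPKM in control libraries 1 to 3 and 3.48, 3.59 and 4.59 FPKM in shSETD2 libraries 1 to 3. The groups did not overlap, and shSETD2 library 3 was the highest. The means were 0.795 ± 0.0566 and 3.89 ± 0.611 FPKM (SD, n = 3 each), a ratio of 4.89. The difference was 1.44 on the log2(FPKM + 1) scale and 2.15 when 0.1 was added in place of 1.

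In all 3 shSETD2 libraries the order of levels was MT2A, MT1E, MT1M, MT1X and MT1F, and no neighbours in that order overlapped over the libraries. The closest were MT1M at 32.0 to 36.7 and MT1X at 25.8 to 28.4 FPKM. In the control libraries the order was MT2A, MT1X and MT1F, again without overlap, with MT1E and MT1M below them at or near 0.

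These levels depend on how reads that match several genes, in the family or outside it, were counted, which is not stated. Of the 50-base windows of each reference transcript, 51.0% in MT1X also occur in another annotated gene, against 5.34% in MT1E, 6.12% in MT1F, 11.1% in MT2A and 14.6% in MT1M. Of the 100-base windows, 22.0% in MT1X and 0% in the other 4 do so. The MT1X level is therefore the least certain, whereas most parts of the MT2A and MT1E transcripts are distinct at either length. An annotated non-coding gene on the same strand overlaps MT1X, and windows shared with a gene at the same place also count as shared here. Its part in the 51.0% and 22.0% was not separated.

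The make-up of the family differed between the groups. In the control libraries MT2A gave 61.2% ± 2.4 of the summed FPKM, MT1X 31.6% ± 3.7 and MT1F 6.53% ± 0.45 (SD, n = 3 each), and MT1E gave 1.94% in the 1 library where it was detected. In the shSETD2 libraries MT2A gave 57.1% ± 0.365 and MT1E 36.97% ± 0.315. There MT1M gave 3.13% ± 0.0485, MT1X 2.44% ± 0.0827 and MT1F 0.348% ± 0.0435 (SD, n = 3 each). MT2A thus led in both groups, while MT1E stood second in the shSETD2 libraries where MT1X had stood second in the controls.

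**Figure D2:**
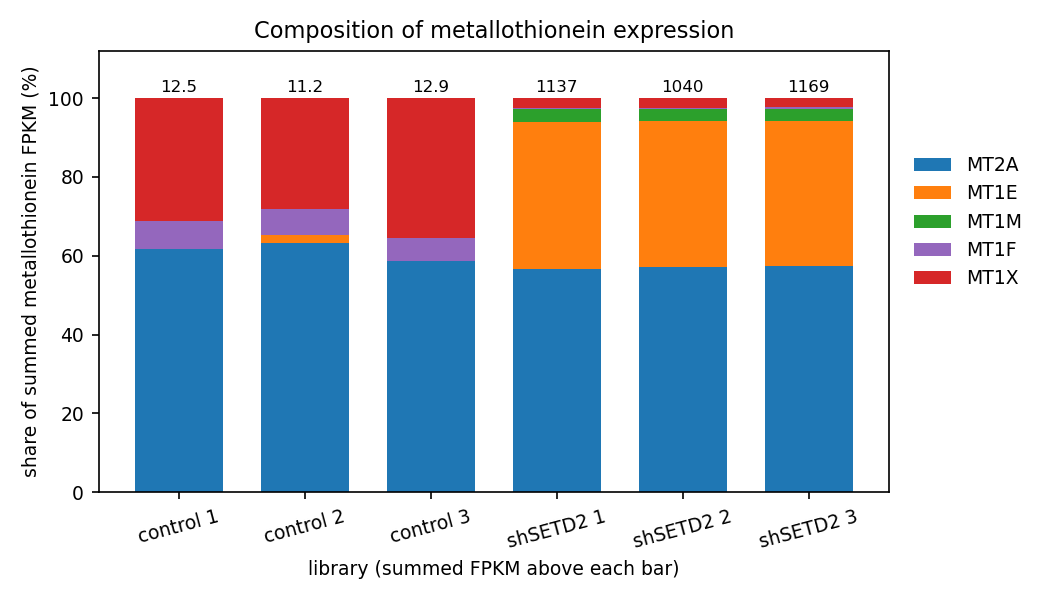
Share of the summed metallothionein FPKM taken by each gene, in percent, for each of the 6 libraries, with the summed FPKM above each bar. MT1X (28.1% to 35.4%) follows MT2A in the control libraries and MT1E (36.7% to 37.3%) follows it in the shSETD2 libraries.

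Ratios between members were steady across the shSETD2 libraries for the 3 genes with the largest gains. The ratio of MT2A to MT1E was 1.52, 1.55 and 1.56 in libraries 1 to 3 (coefficient of variation 1.49%), and that of MT1E to MT1M was 11.76, 11.98 and 11.68 (1.29%). Each of these genes alone varied by 6.03% to 7.31% between the same libraries, so they went up and down together. The ratio of MT2A to MT1X was 1.98, 2.26 and 1.66 in control libraries 1 to 3 and 22.7, 23.1 and 24.5 in shSETD2 libraries 1 to 3. The ratio of MT2A to MT1F was 8.99, 9.47 and 9.73 in the control and 185.4, 165.7 and 146.2 in the shSETD2 libraries, and it varied by 11.8% among the latter.

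The shared variation had a direction, since shSETD2 library 2 was the lowest of its group for MT2A (0.935 of the group mean), MT1E (0.930), MT1M (0.916) and MT1X (0.948). MT1F was lowest in library 1 (0.895) and highest in library 3 (1.18). Over the 11216 genes tested with a mean of 1 FPKM or more in the shSETD2 libraries, library 2 was the lowest for 37.2% and at 0.95 of the group mean or less for 26.5%, and its median was 1.00. Library 2 was thus not low over these 11216 genes as a whole. Among the genes nearest in level to MT2A and MT1E, described below, it was also the lowest for IER3, KRT18, AHNAK, PLP2, HIST1H1B, S100A6 and HIST1H3I. It was not the lowest for SDC4, CXCL1 and CXCL8. These genes were picked for likeness over the same libraries, library 2 included, so they cannot show whether the lower level is shared more widely. Over the 11216 genes, 26.5% were at 0.95 of the group mean or less in library 2, so such a level was not particular to the metallothionein genes. With 3 libraries this is a description of 4 genes in 1 library.

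The genes whose levels over the 6 libraries came nearest to MT2A and MT1E, by Euclidean distance of log2(FPKM + 1), were picked by likeness alone and get no test. Nearest to MT2A was IER3, an immediate early gene of stress and cytokine signalling, at a distance of 0.778, with 4.57 to 6.95 FPKM in the control and 714.1 to 757.9 in the shSETD2 libraries. It was followed by KRT18, a keratin of simple epithelia (2.38), SDC4, a heparan sulphate proteoglycan of the cell surface (2.75), AHNAK, a very large scaffold protein (2.84), and PLP2, a membrane protein (3.14). IER3 was the closest to the full MT2A pattern, and the shSETD2 means of the other 4 lay between 212.2 FPKM for SDC4 and 278.4 FPKM for PLP2.

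Nearest to MT1E was HIST1H1B, a linker histone gene, at a distance of 0.311, at 0 in each control library, with 415.5 to 440.2 FPKM in the shSETD2 libraries. CXCL1, a neutrophil chemokine, followed at 0.383 with 0.0707 to 0.118 FPKM in the control and 358.6 to 368.8 FPKM in the shSETD2 libraries. S100A6, a small calcium-binding protein, lay at 0.478, and the histone H3 gene HIST1H3I (1.43) and the chemokine gene CXCL8 (1.46) came next. MT1E was therefore 1 of several genes at or near 0 in the control libraries and high in the shSETD2 libraries.

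The genes around the cluster were set against it. Of 14 other genes of the table within 500 kb on either side, 12 were tested, and 6 were called higher, 0 lower and 6 neither, with a median log2 fold change of 0.43, where all genes tested had 26.8% higher, 51.8% lower and a median of -0.29. With median ratio scaling, 10 of the 12 were called higher, where 5305 of all 14068 genes tested were. In 10 of the 12 the log2 fold change was under 1 in size, as it was for 70.0% of all genes tested. A change over 5-fold upward was found for 3.26% of all genes tested.

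The exception nearest to the cluster was inside it. AC026461.3, a long non-coding RNA gene on the minus strand with 3 bases between its annotated end and that of MT2A, was at 0 in each control library and had 17.5, 15.2 and 12.7 FPKM in shSETD2 libraries 1 to 3. It is the only other gene of the table inside the cluster. The library kit keeps the strand, but the strand setting of the counting is not stated, so reads that run on from MT2A and reads of AC026461.3 cannot be told apart here.

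Outside the cluster, the nearest protein-coding genes are named for their position. BBS2, a gene of the ciliary BBSome complex that ends 87.9 kb before MT2A, had 4.93, 5.65 and 5.76 FPKM in control libraries 1 to 3 and 5.49, 6.38 and 6.37 in shSETD2 libraries 1 to 3. The groups overlapped, with a log2 fold change of 0.13 (SE 0.08, adjusted p = 0.170 from limma). NUP93, a nuclear pore gene that starts 45.9 kb after MT1X, had 7.63, 7.28 and 7.29 FPKM in the control and 10.6, 9.11 and 9.69 in the shSETD2 libraries. It was higher without overlap, with a log2 fold change of 0.36 (SE 0.06, adjusted p = 1.88e-03 from limma).

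Among the called neighbours, CPNE2, which encodes a calcium-dependent membrane-binding protein, rose from a mean of 2.49 to 10.4 FPKM (log2 fold change 1.71). AC009090.5, a low gene annotated without a settled type, rose from 0.254 to 0.965 FPKM (0.64, or 1.69 with 0.1 and 2.18 with 0.01 added in place of 1). HERPUD1, an endoplasmic reticulum stress gene, rose from 12.8 to 20.0 FPKM (0.60). On the log2(FPKM + 1) scale the differences of HERPUD1 and AC009090.5 were smaller than that of any metallothionein gene. That of CPNE2 was larger than the 1.44 of MT1F. That of AC026461.3 was larger than those of MT1F and MT1X, but with controls at 0 its size depends on the number added.

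**Figure D3:**
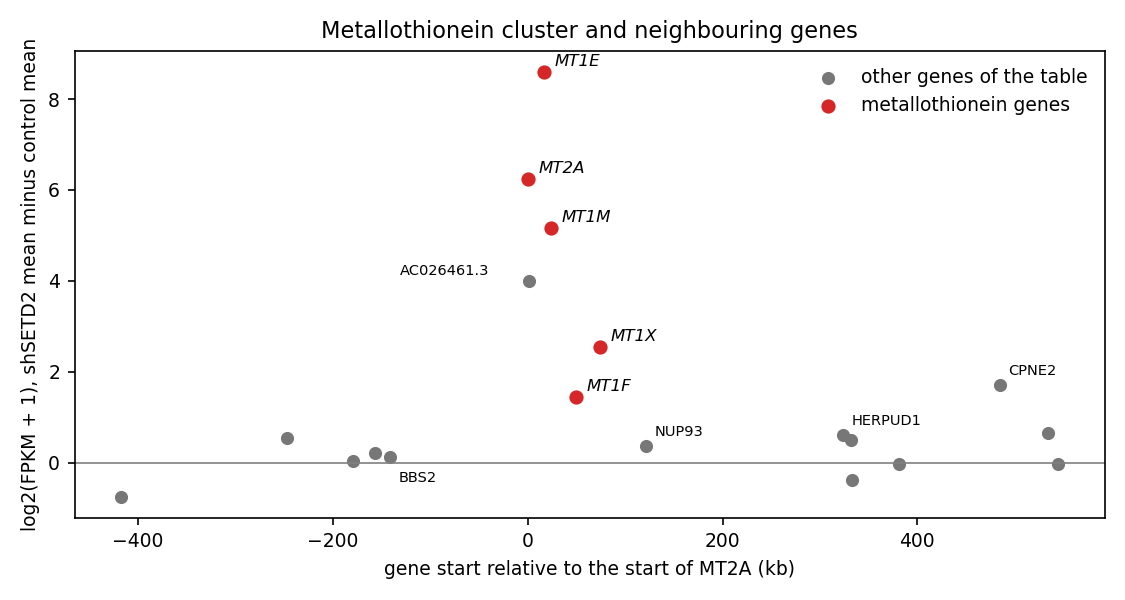
Difference between the shSETD2 and control means of log2(FPKM + 1) against the distance of each gene's start from the start of MT2A in kb, for the 5 metallothionein genes (red) and 14 other genes (grey), 2 of which were too low to test. The metallothionein genes lie at 1.44 to 8.59, where MT1E, MT1M and AC026461.3 have control libraries at 0 so that their height depends on the 1 added, and apart from AC026461.3 and CPNE2 the grey points lie within 1 of 0.

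The metal and oxidant response list gathers the regulator of the family with genes that metals, oxidants and heat induce. Of its 14 genes, all tested, 9 were higher, 3 lower and 2 neither, with a median log2 fold change of 0.82. Over all genes tested, 26.8% were higher and 51.8% lower, with a median of -0.29. This list and the lists below were chosen with earlier results of these data known, so the contrast with all genes is a description. MTF1, which activates metallothionein genes on zinc or cadmium, had 2.93, 3.55 and 3.35 FPKM in control libraries 1 to 3 and 5.75, 5.74 and 5.49 in shSETD2 libraries 1 to 3. The groups did not overlap, with the shSETD2 libraries higher, and the log2 fold change was 0.64 (SE 0.07, adjusted p = 1.62e-04 from limma).

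Oxidant response genes made the largest differences of this list. NQO1, a quinone reductase, had 0.327, 0.568 and 0.789 FPKM in the control and 73.6, 72.8 and 72.0 in the shSETD2 libraries (log2 fold change 5.57, adjusted p = 7.87e-08 from limma). HMOX1, which encodes haem oxygenase 1, rose from 10.8 ± 0.607 to 141.0 ± 6.27 FPKM (SD, n = 3 each) with a log2 fold change of 3.58. TXNRD1, a thioredoxin reductase, rose from 11.9 ± 0.523 to 129.6 ± 2.26 FPKM (SD, n = 3 each) with a log2 fold change of 3.34. GCLC, the catalytic subunit of the enzyme that starts glutathione synthesis, and SLC7A11, the cystine importer, were the 2 genes not called, at log2 fold changes of -0.15 and -0.13, and are named after their values were seen.

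The 3 lower genes were heat shock genes, whose products refold damaged proteins and which cadmium also induces. HSPA1B went from 277.1 ± 3.74 to 78.1 ± 2.89 FPKM (log2 fold change -1.81) and the cochaperone gene DNAJB1 from 16.9 ± 2.1 to 10.1 ± 1.37 FPKM (-0.69, SD, n = 3 each). HSPA1A fell from 122.7 to 89.6 FPKM (-0.45), a call that was lost with median ratio scaling (-0.10, adjusted p = 0.0631 from limma). HSPA1A and HSPA1B are near-identical copies, so the division of reads between them is uncertain.

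**Figure D4:**
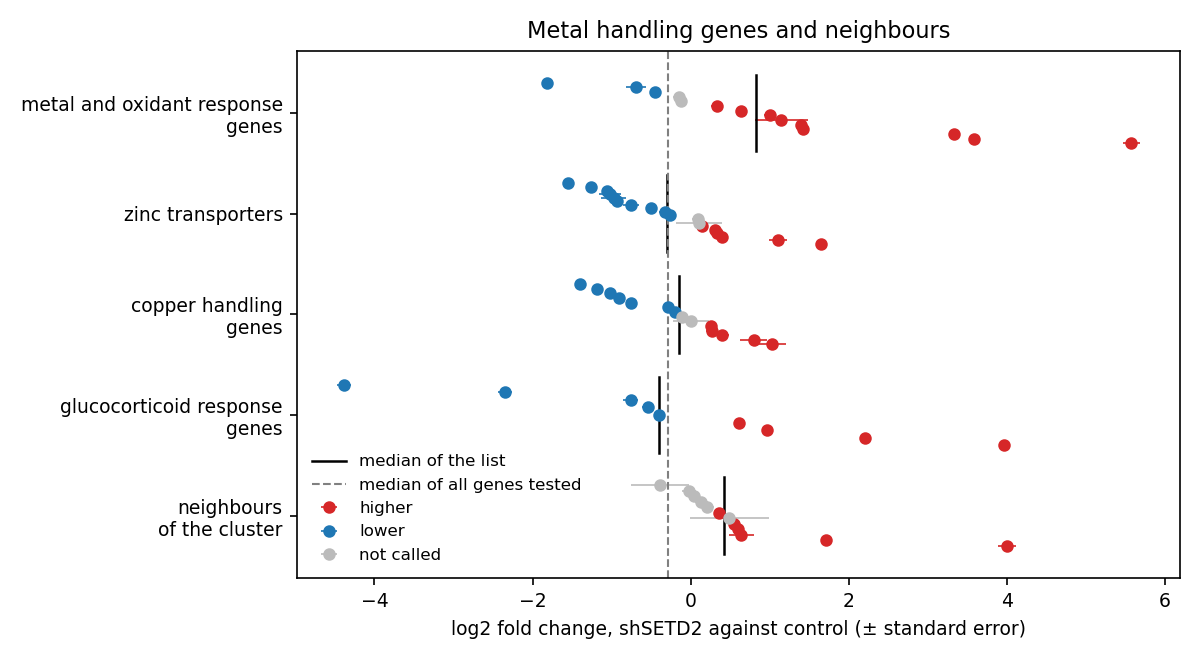
Log2 fold change of each tested gene (points, with standard error), shSETD2 against control, in the 4 lists of metal, oxidant and hormone response genes and among the neighbours of the cluster, with the median of each list (black line) and of all genes tested (dashed line, -0.29). The metal and oxidant list (median 0.82) and the neighbours (0.43) lie to the right of the dashed line, and the zinc (-0.30), copper (-0.15) and glucocorticoid (-0.40) lists lie close to it, where the outermost neighbour, AC026461.3, is at 0 in all controls.

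Zinc transporters move the metal that metallothioneins buffer, out of the cytosol (SLC30A family) or into it (SLC39A family). Of 24 genes on the list, 18 were listed and tested, and 6 were higher, 10 lower and 2 neither, with a median log2 fold change of -0.30. These counts and this median lie near those of all genes tested (26.8% higher, 51.8% lower, median -0.29). SLC30A1, the zinc exporter of the plasma membrane and, like the metallothioneins, a known MTF1 target, had 5.06, 5.51 and 4.78 FPKM in control libraries 1 to 3 and 6.40, 7.19 and 6.55 in shSETD2 libraries 1 to 3. The groups did not overlap, and its log2 fold change was 0.33 (SE 0.07, adjusted p = 3.96e-03 from limma), well under the differences of the metallothionein genes.

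The importers SLC39A14, which also carries iron and manganese, and SLC39A13 rose from 11.7 ± 0.186 to 39.0 ± 0.533 FPKM (log2 fold change 1.65) and from 3.96 ± 0.707 to 9.62 ± 0.584 FPKM (1.11, SD, n = 3 each). The Golgi zinc transporter gene SLC30A7 had a log2 fold change of 0.39. Lower were SLC30A3, which fills synaptic vesicles with zinc and was at 1.91 to 1.97 FPKM in the control and at 0 in 2 of the 3 shSETD2 libraries, SLC30A9 (-1.26) and the importer SLC39A8 (-1.06).

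Copper is the other metal that metallothioneins hold. The 13 copper handling genes had 14 entries, as SCO2 was listed under 2 identifiers, and of these 5 were higher, 7 lower and 2 neither, with a median log2 fold change of -0.15, again beside 26.8% higher, 51.8% lower and a median of -0.29 over all genes tested. COMMD1, a regulator of copper export (1.03), SLC31A2, a low-affinity copper transporter (0.80), and 1 entry of SCO2, an assembly factor of cytochrome oxidase (0.40), were the highest. CUTC, a copper-binding protein (-1.40), COX11, another such assembly factor (-1.18), and ATP7B, a copper-exporting ATPase (-1.02), were the lowest.

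Glucocorticoids induce MT2A in many cells, and a list of 12 genes of that response was examined, of which 11 were listed and 9 tested. Of these 4 were higher and 5 lower, with a median log2 fold change of -0.40, while of all genes tested 78.6% were called (26.8% higher, 51.8% lower, median -0.29). TSC22D3, a strongly induced glucocorticoid target, fell from 37.4 ± 3.75 to 0.839 ± 0.118 FPKM (SD, n = 3 each; log2 fold change -4.38), and KLF9 (-2.35) and CDKN1C (-0.76) were also lower. ERRFI1, a feedback inhibitor of EGF receptor signalling, rose from 7.12 to 125.9 FPKM (3.97), and the kinase gene SGK1 (2.20) and the phosphatase gene DUSP1 (0.96) were higher.

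Markers of tissue and cell identity also differed between the groups, beside every difference given here. Of 12 lung epithelium markers 3 were listed, with a summed level of 21.1 to 22.4 FPKM in the control and 36.8 to 41.1 in the shSETD2 libraries, mostly LPCAT1 (17.7 and 37.8 FPKM on average), a phospholipid enzyme gene. FOXA1 fell from 2.39 to 0.452 FPKM. NKX2-1, a defining lung transcription factor, was at 1.44 to 1.80 FPKM in the control libraries and at 0 in the shSETD2 libraries, and the surfactant and secretoglobin genes were among the 9 markers not listed. The 7 of 10 epithelium markers listed summed to 14.09 to 16.02 FPKM in the control and 402.1 to 454.5 in the shSETD2 libraries. The sum was mostly KRT18, KRT8 and KRT7, while CDH1, which encodes E-cadherin, was at 0.860 to 1.52 and at 0.0107 to 0.0140 FPKM. Of those too low to test, EPCAM fell on average from 0.710 to 0.220 FPKM, while ESRP1 rose from 0.0176 to 0.803 and CLDN4 from 0.0670 to 0.175. The 6 of 8 mesenchyme markers listed summed to 78.9 to 94.9 and 142.6 to 151.8 FPKM, mostly VIM. FN1 also rose, but TWIST1 was at 0 in the shSETD2 libraries and COL1A1 fell on average from 2.78 to 0.269 FPKM. Of those too low to test, COL3A1 fell from 0.739 to 0.00854 FPKM and PDGFRB overlapped between the groups. Among the tested markers, 1 of 3 lung epithelium, 3 of 4 epithelium and 2 of 4 mesenchyme genes were called higher and the others lower. Over all genes tested, 26.8% were higher and 51.8% lower. All 10 markers of embryonic kidney lines were listed and summed to 171.8 to 176.6 FPKM in the control and 79.6 to 85.5 in the shSETD2 libraries. Of them 3 were called higher, 6 lower and 1 neither, beside 26.8% higher and 51.8% lower over all genes tested. LIN28B, NEFM, NEFL, SIX2 and EYA1 were at 0 in the shSETD2 libraries. PAX8 went from 0 to 0.0368 up to 28.1 to 35.2 FPKM, and on average PAX2 rose from 0.739 to 9.93 and CDH2 from 20.5 to 23.2 FPKM. The defining lung markers were thus low or at 0 under the label lung, and the part of these identity differences in the metallothionein levels was not tested.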

How the data were processed

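Total RNA of 3 control and 3 shSETD2 libraries of H1650 cells was extracted with Trizol, made into libraries with a KAPA stranded kit and sequenced on an Illumina HiSeq instrument. The authors mapped reads to hg19 with HISAT2 (also named in the submitters' processing notes), quantified genes with Ballgown and deposited FPKM per gene and library. The tool versions, the filter that chose the listed genes and the treatment of reads that match several genes are not given in the sources used here. A second deposited table repeats FPKM and holds the authors' fold changes with p- and q-values, which were not used.

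Genes whose mean FPKM reached 0.5 were tested on log2(FPKM + 1) with limma 3.58.1 in R 4.3.3 (lmFit, and eBayes with an intensity trend), with Benjamini-Hochberg adjustment over the 14068 genes and a threshold of 0.05. This scale understates the change of low genes. The smallest p of an exact permutation test on groups of 3 is 0.1, so adjusted p-values rest on the model across genes. The fit was also tested on simulated data. Metallothionein values were computed with no test. Lists (metal and oxidant response, zinc transporters, copper handling, glucocorticoid response, neighbours, and markers of lung epithelium, epithelium, mesenchyme and embryonic kidney lines) are given by counts and medians.

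The members and lists were chosen with earlier results of these data known. Genes named were the members, SETD2, MTF1 and SLC30A1, up to 3 called genes at each end of each list, the 5 genes nearest to MT2A and to MT1E over the 6 libraries, and markers. Names outside this rule are given with their reason, and 1 gene that it covers is not reported here. Replicate numbers did not pair the libraries (r of deviations for the same number -0.02 to 0.02), so the fit had no block. Alternatives were pseudocounts of 0.1 and 0.01, no filter or a mean FPKM of at least 5, median ratio, quantile and upper quartile scaling, no intensity trend, a replicate block and each library left out in turn.

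Promoters came from RefSeq on GRCh38.p14, found for 2 of the 5 members (MT2A and MT1X). Transcripts and shared windows came from GENCODE for GRCh37. Python 3.11.15, pandas 2.3.3, Biopython 1.88 and matplotlib 3.10.9 were used.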

Additional observations from a re-analysis of the deposited data

How the results depend on the processing

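For MT2A, MT1E, MT1F and MT1X the groups did not overlap, so no pseudocount or left-out library could reverse their differences. The scalings tried also kept the direction, for genes that had been chosen by it. MT1M, at 0 in each control library, was not recomputed. The summed family differed by 6.40 on the log2(FPKM + 1) scale, by 6.50 and 6.51 with 0.1 and 0.01 added, by 6.74 with median ratio and 6.55 with quantile scaling, and by 6.35 to 6.45 with each library left out. Of 469 values recomputed for 32 named genes of the lists, 468 kept their direction and call, and HSPA1A lost its call with median ratio scaling. With a mean FPKM of at least 5, fewer genes were tested: 5647 of 7078 were called, 2401 higher and 3246 lower, against 3774 and 7283. That filter left 5 lower zinc transporters, and 2 higher and 4 lower copper handling genes. Among the neighbours, 10 were higher with median ratio scaling, where 5305 of all 14068 genes tested were. Of the neighbours 1 was lower with quantile scaling (6013 of 14068 over all genes) and 1 with no filter (8118 of 15897). The cause was not tested.

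SETD2 was between -0.83 and -0.45 with each library left out, and was called without control library 2 or without shSETD2 library 3. With median ratio scaling it was -0.25 (adjusted p = 0.377 from limma). With the replicate number as a block it was -0.58 (adjusted p = 0.0156), and 10976 genes were called in place of 11057. The numbers share no pairing in the labels. The fragments behind each FPKM are unknown, so the counting error of low values, such as those of MT1F, cannot be given.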
